A study of Arabidopsis thaliana with 12 samples.

Results

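The 10 genes described here encode water channels (aquaporins) of the Arabidopsis thaliana root. They are the 5 PIP1 genes of the plasma membrane, PIP1;1 (AT3G61430), PIP1;2 (AT2G45960), PIP1;3 (AT1G01620), PIP1;4 (AT4G00430) and PIP1;5 (AT4G23400), and 5 TIP genes of the vacuolar membrane, TIP1;1 (AT2G36830), TIP1;2 (AT3G26520), TIP2;1 (AT3G16240), TIP2;2 (AT4G17340) and TIP2;3 (AT5G47450). They were taken from the table of expression values by their locus identifiers, 10 of the 33602 genes listed, and no measured value entered the rule. All 10 were among the 20776 genes that passed the filter on low values.

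Messenger RNA was sequenced from cut whole roots in 12 libraries that form 4 groups of 3. The groups were the quintuple mutant bpc1,2,3,4,6 (bpc) with benzyladenine (BA), bpc with vehicle, wild type (WT, Col-0) with BA, and WT with vehicle. BA is a synthetic cytokinin and was given at 5 µM. The vehicle was 0.01% of a NaOH stock. All plants were 10 days old, grew in constant light, and were shaken for 1 h as whole seedlings in dilute liquid MS medium, 12 to a set, so that each library pools the roots of many seedlings. The BPC genes encode BASIC PENTACYSTEINE transcription factors, which bind GA-rich DNA. Nothing in the labels says that the 3 libraries of a group were grown apart. A p-value here only sets a group difference against the scatter among these libraries, which can be technical scatter.

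Aquaporins are small membrane proteins that let water, and in some cases small neutral solutes, pass a membrane along its gradient. Those of the plasma membrane (PIP) set much of the water permeability of root cells. PIP1 proteins generally reach the plasma membrane together with PIP2 partners, as shown in maize and in frog oocytes. Those of the vacuolar membrane, the tonoplast (TIP), let water move between the cytosol and the vacuole, which fills most of a grown root cell.

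The labels were checked first, with levels in RPKM (reads per kilobase of gene, scaled to the read total of the library). BPC1, BPC2 and BPC6 averaged 1.32 to 1.79 RPKM in the bpc groups and 11.7 to 31.9 RPKM in the WT groups. BPC4 averaged 16.3 to 16.9 RPKM in bpc and 23.4 to 24.6 RPKM in WT, whereas BPC3 averaged 3.16 to 3.51 RPKM in bpc and 1.38 to 2.16 RPKM in WT. The cytokinin primary response gene ARR5 averaged 129.7 RPKM with BA and 5.75 RPKM with vehicle in bpc, and 131.9 RPKM with BA and 5.28 RPKM with vehicle in WT. Of 8 genes for the photosynthetic apparatus that mark shoot tissue, 6 passed the filter, their summed level was 61.5 to 115.1 RPKM per library, and RBCS1B and LHCB1.1 were at 0 in some libraries. The endodermal markers SCR and MYB36 and the vascular marker PHO1 passed the test as lower with BA in both genotypes, and the root hair regulator RHD6 as higher with BA in bpc. Other markers of these lists did not pass and lay on either side with BA in bpc, the phloem gene SUC2 at 0.80 ± 0.27 log2 units and the epidermal regulators GL2 and WER at -0.32 ± 0.12 and -0.41 ± 0.25 (limma adjusted p = 0.10, 0.14 and 0.47). In whole roots, fewer cells of a type and less RNA per cell cannot be told apart.

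Both vehicle libraries numbered 3, one in each genotype, stood apart from the rest. The 10 aquaporins were all lowest in that library within bpc with vehicle and within WT with vehicle. Their median gap to the group's other libraries was -0.65 log2 units in bpc and -0.82 in WT. The summed level of the 10 genes was 2629 RPKM in bpc vehicle 3 and 2633 RPKM in WT vehicle 3, against 3093 to 4724 RPKM in the other 10 libraries. Over all genes tested, 3.48% in bpc vehicle 3 and 3.16% in WT vehicle 3 were more than 2-fold from the group's others, against 0.756% to 1.61% elsewhere. The top gene of every library, the cell wall extensin AT1G21310, reached 17672 to 22185 RPKM in these 2 libraries and 5452 to 8571 RPKM in the others. What set these 2 vehicle libraries apart was not tested. WT BA 1 differed in another way. In it 69.7% of all genes tested lay below both other libraries of the group, with a median gap of -0.19 log2 units. Its length-weighted RPKM sum was 86.5% of the median library, and it was rescaled in an alternative. The BA comparisons of the 10 genes are therefore given in 2 fits. One holds all 12 libraries, and the other, called the 10-library fit below, leaves out both vehicle libraries numbered 3. For the other comparisons, the other aquaporins named and the proton pumps, the calls of both fits are given. Of the marker lists, the 10-library fit called 2 of 5 shoot markers tested as lower in bpc than WT under each treatment. The background was 6.26% of all genes with BA and 1.77% with vehicle. It called 1 root hair or epidermis marker as higher in bpc than WT with BA. For BA over vehicle it called 2 endodermal markers as lower in each genotype, and 2 vascular markers as lower in bpc and 1 in WT. A root hair or epidermis marker was called higher in bpc and 1 lower in WT (background 9.73% and 10.5%). In that fit each vehicle group rests on 2 libraries, and the libraries were left out with their low aquaporin levels known. Since all 10 genes were lowest there within their group, leaving them out lowers every BA fold change of the 10 by construction. The direction of that shift is therefore no result, and the background genes were not selected in this way.

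**Figure D1:**
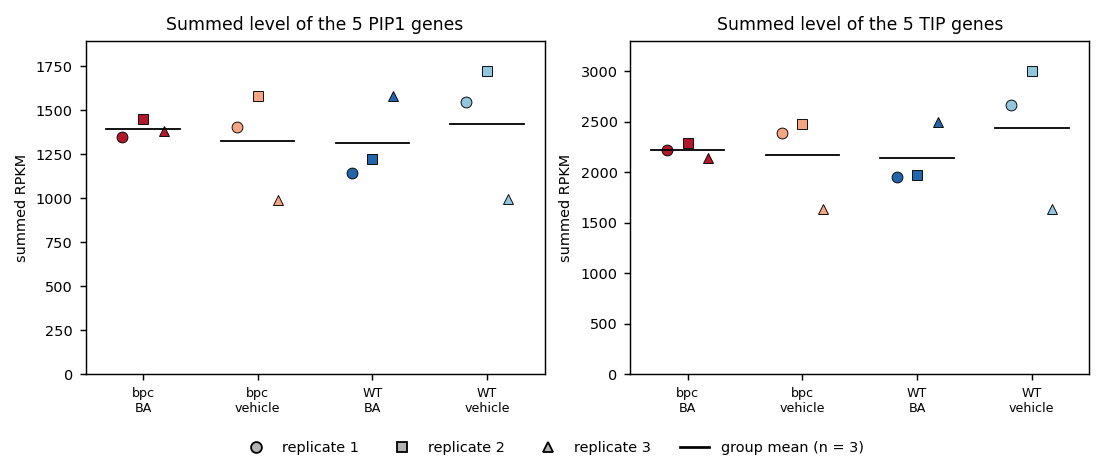
Summed RPKM of the 5 PIP1 genes (left) and of the 5 TIP genes (right) in each of the 12 libraries. Each point is a library, its shape is the replicate number and the bar is the group mean, and the triangles of both vehicle groups (replicate 3) lie below the other 10 libraries, at 991 and 994 RPKM for PIP1 and at 1638 and 1639 RPKM for TIP.

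In the plot of summed levels, the 3 bpc libraries with BA lay close together, at 1349 to 1451 RPKM for PIP1 and 2142 to 2291 RPKM for TIP. Those of bpc with vehicle spanned 991 to 1584 RPKM for PIP1 and 1638 to 2476 RPKM for TIP. In WT the PIP1 sum spanned 1144 to 1583 RPKM with BA and 994 to 1724 RPKM with vehicle, and the TIP sum 1949 to 2494 RPKM with BA and 1639 to 3000 RPKM with vehicle. The BA and vehicle ranges thus overlapped for both sums in both genotypes.

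Levels of different genes can be set side by side because RPKM is per length. TIP1;1 ranked first in bpc with BA (839.9 ± 23.1 RPKM, SD, n = 3 here and below), in bpc with vehicle (1008 ± 101 RPKM) and in WT with vehicle (1103 ± 198 RPKM). In WT with BA its close relative TIP1;2 had the higher mean (840.0 ± 129.6 RPKM, against 782.1 ± 99.0 RPKM) and was the higher in each of the 3 libraries, although the ranges of these neighbours overlapped. The 3 abundant PIP1 genes followed, at group means of 266.2 to 495.0 RPKM. PIP1;4 (55.5 to 73.3 RPKM) and TIP2;3 (24.4 to 44.3 RPKM) were the lowest of the 10 in all groups. In bpc with BA, 7 of the 9 steps down this order were between genes whose ranges did not overlap, and in WT with vehicle 1 of the 9 was.

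The reads behind these values ranged from 267 to 17026 per gene and library. Counting error is small beside the spread in the vehicle groups, where the SD was 10.0% to 43.3% of the mean. In bpc with BA the SD was only 1.77% to 10.1% of the mean. Counting error may be a large part of it for TIP2;3, the gene with the fewest reads (SD 4.36% of the mean). For the other genes its part in the SD was not worked out. The 10 genes are similar in sequence but separable. RefSeq coding sequences were 75.7% to 85.0% identical between PIP1 genes, 81.1% between both TIP1 genes, and 70.8% to 81.5% among the 3 TIP2 genes. No run of 50 bases of any member's transcript occurred in the transcript of another locus. In the RefSeq annotation 1 of the 10 genes, TIP2;1, overlaps others, by 445 bases with a long non-coding RNA (AT3G03265) and by 120 bases with AT3G16250 on the opposite strand. The library kit marks strand, but no source used here tells whether counting used it, so reads of these neighbours may not be told apart there.

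**Figure D2:**
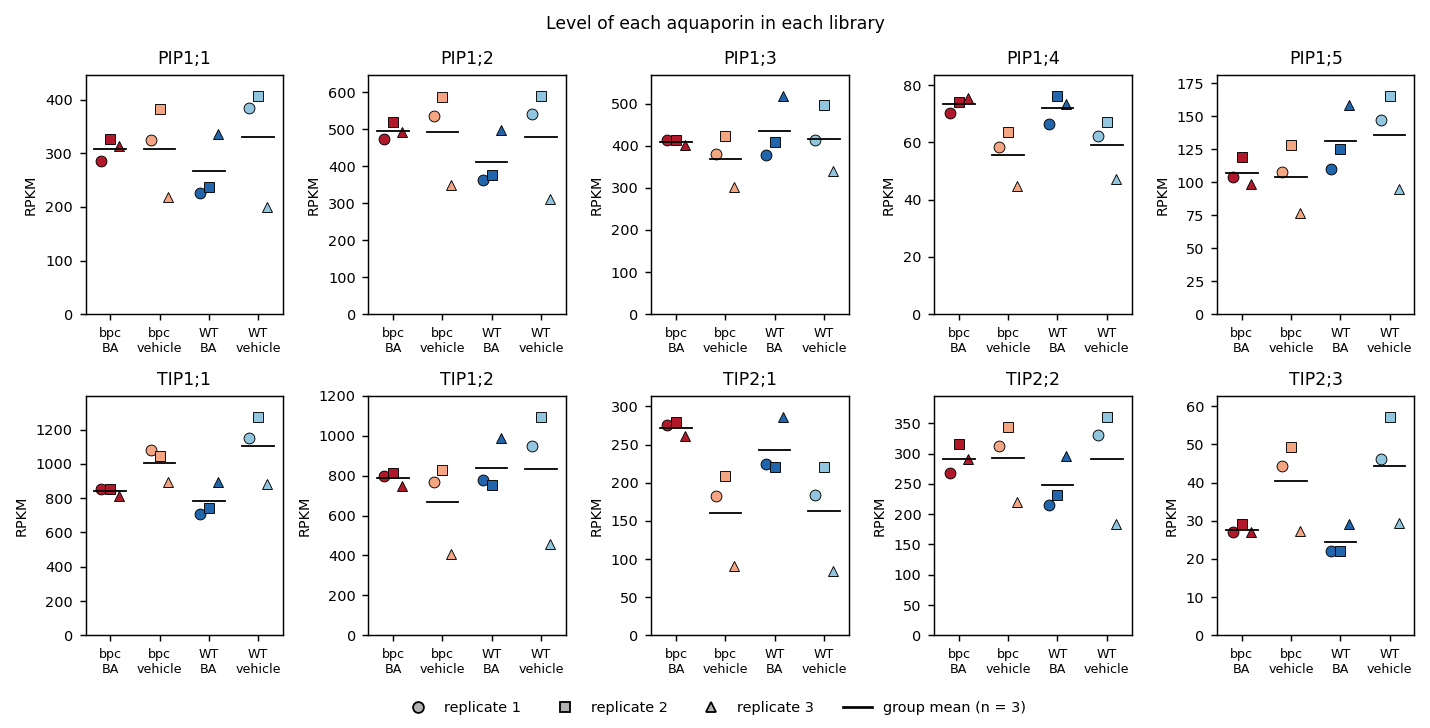
Level in RPKM (linear axis from 0) of each of the 10 aquaporins in each library, where the shape is the replicate number, the colour is the group and the bar is the group mean (n = 3). The replicate 3 vehicle libraries are lowest within their groups in every panel, and TIP2;3 is the panel in which all WT libraries with BA (22.0 to 29.1 RPKM) lie below all WT libraries with vehicle (29.5 to 57.1 RPKM).

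BA for 1 h was compared with vehicle in each genotype, which asks how these genes respond to cytokinin with and without the BPC factors. With all 12 libraries, 0 of the 10 genes passed the threshold (limma, Benjamini-Hochberg adjusted p under 0.05 over all genes tested) in bpc, where 8.59% of all genes did, and 0 of 10 in WT, where 8.68% did. At an unadjusted p under 0.05 the count was 2 of 10 in bpc (background 18.3%) and 2 of 10 in WT (background 18.5%). The median log2 fold change of the 10 was 0.06 in bpc, against 0.00 for all genes, and -0.10 in WT, against -0.05 for all genes. In bpc the BA libraries lay above all vehicle libraries for 2 of the 10 genes (background 12.2%) and below them for 1 (background 14%). In WT they did so for 0 (background 7.9%) and for 1 (background 13%).

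In the 10-library fit, 1 gene passed as higher and 1 as lower with BA in bpc (background 9.73%), and 0 passed as higher and 5 as lower in WT (background 10.5%). The median of the 10 was then -0.15 in bpc, the opposite sign to that with all libraries, and -0.38 in WT, against -0.02 and -0.05 for all genes. This downward shift was fixed by which libraries were left out, and it favours calls as lower over calls as higher. The authors' deposited table for BA in bpc, from their own edgeR fit, lists 3 of the 10 genes as higher and 2 as lower at an FDR under 0.05 (23.8% of its genes in either direction). For WT the authors' deposited table lists 2 as higher and 5 as lower (18.8% of its genes). The genes are taken in turn below, with fold changes on the log2(RPKM + 0.5) scale and their SE.

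PIP1;1 is an abundant plasma membrane channel of roots. It had 286.4, 326.1 and 313.7 RPKM in bpc with BA and 324.6, 382.5 and 218.6 RPKM in bpc with vehicle. The WT libraries had 226.3, 236.4 and 335.8 RPKM with BA and 384.1, 406.2 and 200.3 RPKM with vehicle. The groups overlapped in both genotypes. In WT, BA library 3 lay above vehicle library 3, which was the lowest of all 12. The log2 fold change was 0.04 ± 0.27 in bpc and -0.27 ± 0.27 in WT, with limma adjusted p of 0.97 and 0.71. The 10-library fit gave -0.19 ± 0.15 in bpc (limma adjusted p = 0.62) and -0.59 ± 0.15 in WT (adjusted p = 0.019). In the authors' deposited table the value is 0.00 for bpc (FDR 0.988) and -0.37 for WT (FDR 0.000432).

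PIP1;2 is known to contribute to root water uptake and to carbon dioxide transport in leaves. Its levels were 474.6, 518.0 and 492.5 RPKM in bpc with BA and 535.8, 587.3 and 349.6 RPKM in bpc with vehicle. In WT they were 362.3, 376.4 and 497.2 RPKM with BA and 539.7, 588.6 and 311.4 RPKM with vehicle. The groups overlapped again through the libraries numbered 3. With all libraries the log2 fold change was 0.05 ± 0.24 in bpc and -0.18 ± 0.24 in WT (limma adjusted p = 0.95 and 0.80), and in the 10-library fit -0.18 ± 0.12 in bpc and -0.47 ± 0.12 in WT (adjusted p = 0.55 and 0.028). In the authors' deposited table it is 0.01 for bpc (FDR 0.926) and -0.27 for WT (FDR 0.00251).

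PIP1;4, the lowest of the PIP1 genes and one known to carry hydrogen peroxide, lay the other way. It had 70.4, 74.1 and 75.5 RPKM in bpc with BA and 58.2, 63.5 and 44.7 RPKM in bpc with vehicle, and the groups did not overlap. In WT with BA there were 66.4, 76.1 and 73.6 RPKM and in WT with vehicle 62.3, 67.3 and 47.2 RPKM, where BA library 1 lay within the vehicle range. Its log2 fold change was 0.41 ± 0.15 in bpc (limma adjusted p = 0.13) and 0.30 ± 0.15 in WT (adjusted p = 0.31). It did not pass in the 10-library fit, at 0.27 ± 0.09 in bpc (limma adjusted p = 0.094) and 0.15 ± 0.09 in WT (adjusted p = 0.38). The authors' deposited table lists it as higher, at 0.40 for bpc (FDR 7.15e-07) and 0.28 for WT (FDR 0.00134).

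PIP1;3, a further abundant plasma membrane channel, ranged over 400.7 to 413.3 RPKM in bpc with BA, 301.5 to 422.1 RPKM in bpc with vehicle, 378.9 to 517.3 RPKM in WT with BA and 340.6 to 496.5 RPKM in WT with vehicle. The difference with BA was 0.17 ± 0.17 log2 units in bpc and 0.07 ± 0.17 in WT (limma adjusted p = 0.69 and 0.91). PIP1;5 was at 0.07 ± 0.22 in bpc and -0.02 ± 0.22 in WT (limma adjusted p = 0.91 and 0.98), with 95% intervals of -0.41 to 0.55 and -0.51 to 0.46. Neither gene passed in the 10-library fit, nor is either listed at an FDR under 0.05 for BA in the authors' deposited tables.

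TIP1;1, the most abundant of the 10, is the classic marker of the vacuolar membrane in roots. It had 852.9, 853.5 and 813.2 RPKM in bpc with BA and 1084, 1047 and 893.6 RPKM in bpc with vehicle, so that all BA libraries lay below all vehicle libraries. WT had 709.6, 741.9 and 894.9 RPKM with BA and 1152, 1272 and 884.1 RPKM with vehicle, and only the libraries numbered 3 crossed. The log2 fold change was -0.26 ± 0.16 in bpc (limma adjusted p = 0.46) and -0.49 ± 0.16 in WT (adjusted p = 0.083). By the 10-library fit it was -0.34 ± 0.11 in bpc (limma adjusted p = 0.062) and -0.64 ± 0.11 in WT (adjusted p = 0.0014). Leaving out WT vehicle 3 alone also gave -0.64 in WT (limma adjusted p = 0.019). The authors' deposited table lists it as lower, at -0.26 for bpc (FDR 0.00344) and -0.50 for WT (FDR 1.54e-09).

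TIP1;2 is a tonoplast channel close to the gene above. It had 799.6, 812.4 and 749.5 RPKM in bpc with BA and 768.5, 826.0 and 405.5 RPKM in bpc with vehicle. In WT there were 777.9, 753.1 and 988.9 RPKM with BA and 947.9, 1092 and 458.3 RPKM with vehicle. Vehicle library 3 of each genotype lay far below the group's others. The log2 fold change was 0.31 ± 0.31 in bpc and 0.10 ± 0.31 in WT (limma adjusted p = 0.69 and 0.93), and in the 10-library fit -0.02 ± 0.12 in bpc and -0.29 ± 0.12 in WT (adjusted p = 0.98 and 0.17). The sign thus depended on 2 libraries. In the authors' deposited table it is 0.24 for bpc (FDR 0.00406) and -0.05 for WT (FDR 0.724).

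TIP2;3 is the lowest expressed member and is known to carry ammonia as well as water. It had 27.0, 29.1 and 26.9 RPKM in bpc with BA and 44.3, 49.4 and 27.3 RPKM in bpc with vehicle, where vehicle library 3 was level with the BA libraries. WT libraries had 22.0, 22.0 and 29.1 RPKM with BA and 46.2, 57.1 and 29.5 RPKM with vehicle. In WT all BA libraries lay below all vehicle libraries, the one gene of the 10 for which this held there. The log2 fold change was -0.49 ± 0.24 in bpc (limma adjusted p = 0.31) and -0.81 ± 0.24 in WT (adjusted p = 0.056). It passed in the 10-library fit in both genotypes, at -0.75 ± 0.13 in bpc (limma adjusted p = 0.0023) and -1.07 ± 0.13 in WT (adjusted p = 0.00014).

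The WT value of this gene also passed when 1 of 3 libraries was left out, WT vehicle 3 (-1.07, limma adjusted p = 0.0066), bpc vehicle 2 (-0.81, adjusted p = 0.048) or bpc vehicle 3 (-0.81, adjusted p = 0.016). Leaving out a bpc library leaves the WT fold as it is and changes the shared estimate of the spread and the number of genes tested (20705 without bpc vehicle 2 and 20708 without bpc vehicle 3). The authors' deposited table gives -0.55 for bpc (FDR 6.61e-08) and -0.92 for WT (FDR 1.42e-21).

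TIP2;1, also a channel for water and ammonia, lay on the opposite side. It had 275.6, 279.4 and 261.6 RPKM in bpc with BA and 182.7, 208.5 and 90.7 RPKM in bpc with vehicle, with no overlap. In WT with BA it had 224.1, 220.2 and 285.6 RPKM and in WT with vehicle 183.4, 220.4 and 84.1 RPKM, where the libraries numbered 2 were level. The log2 fold change was 0.85 ± 0.33 in bpc (limma adjusted p = 0.18) and 0.68 ± 0.33 in WT (adjusted p = 0.31). The 10-library fit gave a smaller fold with a narrower error, 0.48 ± 0.12 in bpc (limma adjusted p = 0.024) and 0.26 ± 0.12 in WT (adjusted p = 0.23). Without WT vehicle 3 alone the bpc value of 0.85 had a limma adjusted p of 0.042. The authors' deposited table gives 0.76 for bpc (FDR 3.73e-24) and 0.51 for WT (FDR 9.88e-11).

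TIP2;2, the remaining tonoplast channel, had 267.9 to 316.3 RPKM in bpc with BA and 220.5 to 344.7 RPKM in bpc with vehicle. It ranged over 215.1 to 295.8 RPKM in WT with BA and 183.2 to 359.7 RPKM in WT with vehicle, so the groups overlapped in both genotypes. BA over vehicle was 0.02 ± 0.24 log2 units in bpc and -0.19 ± 0.24 in WT (limma adjusted p = 0.98 and 0.79). By the 10-library fit it was -0.17 ± 0.13 in bpc (limma adjusted p = 0.60) and -0.49 ± 0.13 in WT (adjusted p = 0.024). The authors' deposited table gives 0.00 for bpc (FDR 0.99) and -0.28 for WT (FDR 0.00806).

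**Figure D3:**
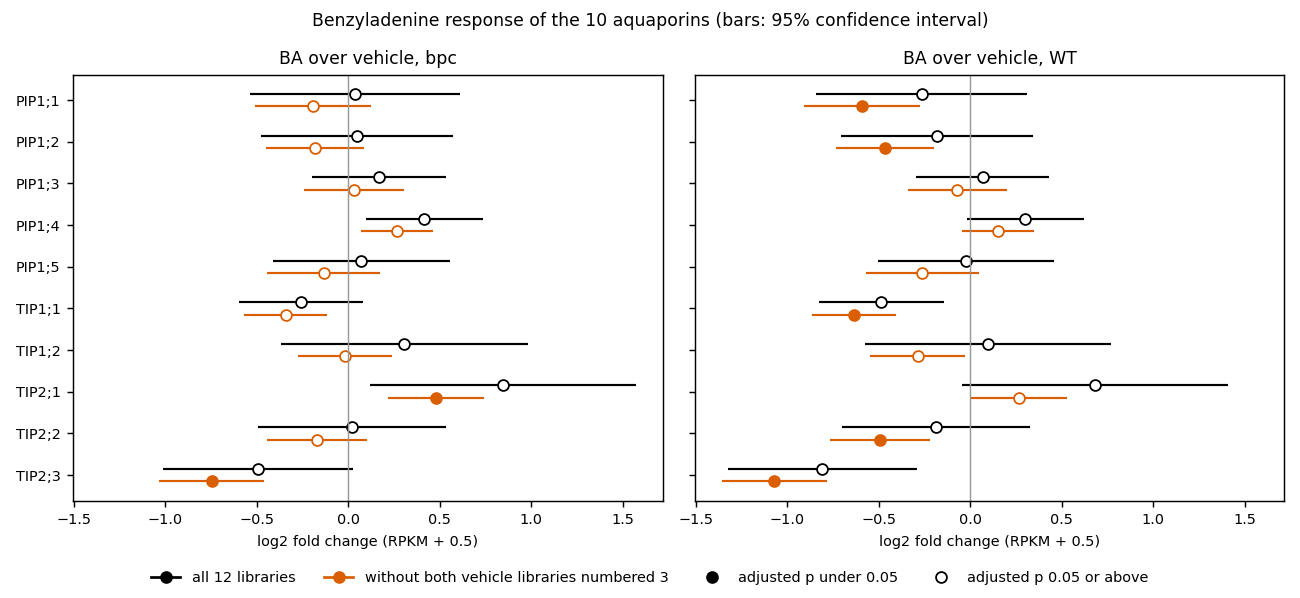
Log2 fold change of BA over vehicle for each aquaporin in bpc (left) and WT (right), with its 95% confidence interval, in the fit of all 12 libraries (black) and in the 10-library fit (orange), where filled points have an adjusted p under 0.05. No black point is filled, and 2 orange points are filled in bpc and 5 in WT.

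Ratios between members within a library do not depend on the scaling of that library. The pairs below were chosen after their values had been seen, so they are given without a test. TIP2;1 over TIP2;3 was 10.2, 9.62 and 9.71 in bpc with BA and 4.12, 4.22 and 3.32 in bpc with vehicle. WT libraries gave 10.2, 10.0 and 9.80 with BA and 3.97, 3.86 and 2.85 with vehicle. The 6 libraries with BA thus lay between 9.62 and 10.2 whatever the genotype, and the 6 with vehicle, both libraries numbered 3 included, between 2.85 and 4.22.

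Other pairs separated the treatments less far. TIP1;2 over TIP1;1 was 0.922 to 1.11 in the 6 BA libraries and 0.454 to 0.859 in the 6 vehicle libraries. With BA it was 0.922 to 0.952 in bpc and 1.02 to 1.11 in WT, and with vehicle the genotypes overlapped. PIP1;4 over PIP1;1 overlapped, at 0.219 to 0.322 with BA and 0.162 to 0.236 with vehicle. As a share of the 5 TIP genes, TIP2;1 was 12.2% to 12.4% in bpc with BA and 5.54% to 8.42% in bpc with vehicle, and 11.2% to 11.5% in WT with BA and 5.13% to 7.35% in WT with vehicle. TIP1;1 made up 37.3% to 38.4% in bpc with BA and 42.3% to 54.6% in bpc with vehicle, and 35.9% to 37.7% in WT with BA and 42.4% to 53.9% in WT with vehicle. These shares are parts of one sum, so a higher share of one gene lowers the others.

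**Figure D4:**
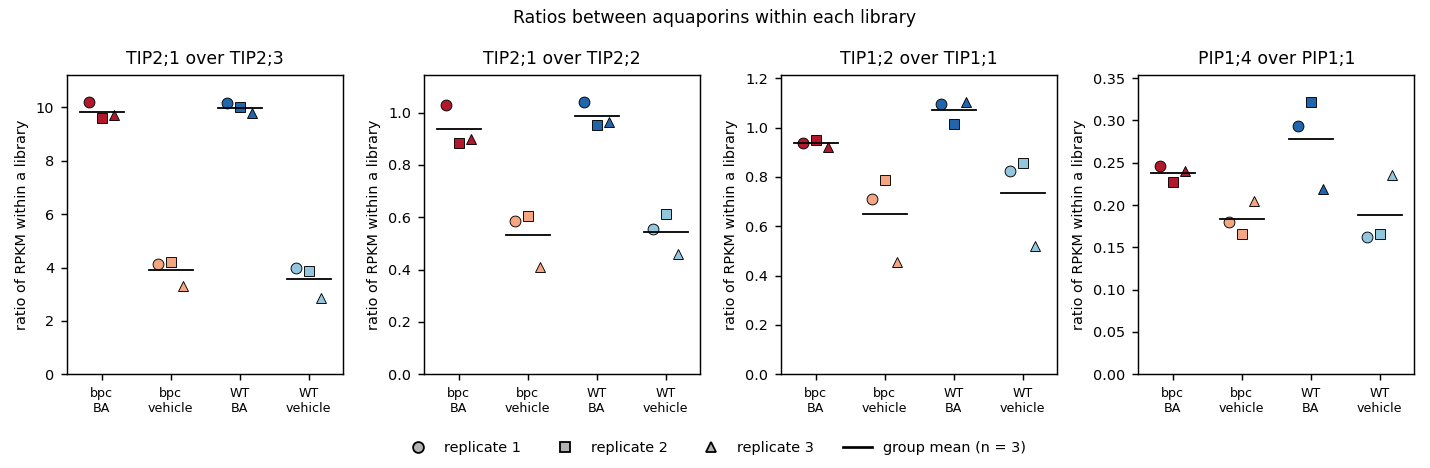
Ratio of RPKM between pairs of aquaporins within each library (linear axes from 0), with group means as bars. In the left panel the BA libraries of both genotypes lie at 9.62 to 10.2 and the vehicle libraries at 2.85 to 4.22, whereas in the right panel the treatments overlap.

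The promoters of the 3 TIP genes with the clearest BA values are shown because BPC factors bind GA-rich DNA and cytokinin acts through type-B response regulators (ARR), whose core motif is AGATT. Each is the 250 bases before the RefSeq gene start in TAIR10.1, 5′ to 3′ on the strand of the gene. They lie, in the order shown, at chr3:5505110-5505359 (plus strand), chr5:19249623-19249872 (minus strand) and chr2:15445044-15445293 (plus strand). Capitals mark GAGAGA and AGATT on either strand.
TIP2;1: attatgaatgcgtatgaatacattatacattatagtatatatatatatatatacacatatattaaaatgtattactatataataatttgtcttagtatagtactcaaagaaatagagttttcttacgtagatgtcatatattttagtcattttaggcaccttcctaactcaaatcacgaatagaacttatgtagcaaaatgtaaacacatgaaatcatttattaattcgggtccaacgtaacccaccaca
TIP2;3: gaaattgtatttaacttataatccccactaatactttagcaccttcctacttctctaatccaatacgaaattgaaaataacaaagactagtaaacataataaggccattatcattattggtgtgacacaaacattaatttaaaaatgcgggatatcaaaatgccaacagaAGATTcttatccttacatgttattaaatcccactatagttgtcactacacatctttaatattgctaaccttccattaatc
TIP1;1: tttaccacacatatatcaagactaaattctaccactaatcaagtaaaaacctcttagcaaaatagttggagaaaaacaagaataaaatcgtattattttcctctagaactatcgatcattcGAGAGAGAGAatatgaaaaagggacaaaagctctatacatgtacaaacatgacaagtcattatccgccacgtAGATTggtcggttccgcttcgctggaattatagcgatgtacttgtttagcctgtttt

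The TIP1;1 window held GAGAGA at 3 overlapping starts in one run and AGATT once, the TIP2;3 window held AGATT once, and the third held neither. Of the 10 members, 2 windows held GAGAGA, the other being that of PIP1;1, against 20.6% of 27443 gene windows of the same length. AGATT was in 5 of the 10 windows, against 63.7% of all. A match describes these letters in this window only.

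bpc was next compared with WT under each treatment. With all 12 libraries, 0 of the 10 genes passed the limma threshold with BA, where 2.32% of all genes did, and 0 of 10 with vehicle, where 1.99% did. At an unadjusted p under 0.05 the limma count was also 0 of 10 in both comparisons, against 15.2% of all genes with BA and 13.4% with vehicle. The groups overlapped for all 10 genes, whereas bpc lay above WT without overlap for 19.1% of all genes with BA and 9.89% with vehicle, and below WT for 6.48% with BA and 6.77% with vehicle. The median log2 fold change of the 10 was 0.14 with BA, against 0.08 for all genes, and -0.10 with vehicle, against 0.04 for all genes. These medians were not stable. With vehicle the median was 0.09 without bpc vehicle 3, 0.05 without WT vehicle 2 and -0.35 without WT vehicle 3. With BA it was 0.07 (0.02 for all genes) once WT BA 1 was rescaled, 0.08 without WT BA 1 and 0.25 without WT BA 3. The 10-library fit also called 0 of 10 in both comparisons, against 6.26% of all genes with BA and 1.77% with vehicle.

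PIP1;5, a plasma membrane channel of middling level, had the lowest bpc values relative to WT. It had 103.9, 119.5 and 98.6 RPKM in bpc with BA and 110.3, 125.3 and 158.8 RPKM in WT with BA. With vehicle it had 107.7, 128.3 and 76.5 RPKM in bpc and 147.3, 165.2 and 94.7 RPKM in WT. bpc was the lower in each pair of same-numbered libraries, but the groups overlapped under both treatments. As a share of the 5 PIP1 genes it did not overlap. That share was 7.14% to 8.24% in bpc and 9.64% to 10.2% in WT with BA, and 7.66% to 8.10% and 9.52% to 9.58% with vehicle. The share of PIP1;2 was higher in bpc, at 35.2% to 35.7% against 30.8% to 31.7% with BA, and 35.3% to 38.1% against 31.3% to 34.9% with vehicle. These shares are parts of one sum and were not tested. The log2 ratio of bpc over WT was -0.28 ± 0.22 with BA (limma adjusted p = 0.62) and -0.37 ± 0.22 with vehicle (adjusted p = 0.54).

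Same-numbered vehicle libraries of both genotypes deviated together from their group means, with correlations of 0.31, 0.37 and 0.63 for numbers 1, 2 and 3. Numbers 1 and 2 were hardly singled out, since WT vehicle 1 with bpc vehicle 2 gave 0.34 and WT vehicle 2 with bpc vehicle 1 gave 0.19. In a limma fit of those 6 libraries with the replicate number as a block, PIP1;5 passed as lower in bpc (-0.37 ± 0.06, adjusted p = 0.028), the 1 member of 10 to do so, where 4.05% of all genes passed. The authors' deposited table for bpc over WT with vehicle lists 2 of the 10 genes at an FDR under 0.05 (13.1% of its genes), this gene at -0.33 (FDR 0.0021) and TIP1;2 at -0.21 (FDR 0.0275).

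The fold of that TIP1 gene was -0.29 ± 0.31 with vehicle in the fit of all 12 libraries (limma adjusted p = 0.78). With BA, the largest positive value of bpc over WT was 0.28 ± 0.24, for PIP1;2 (limma adjusted p = 0.66). The 95% interval was widest for TIP2;1, at -0.55 to 0.90 log2 units with BA, and narrowest for PIP1;4, at -0.29 to 0.35. Values inside an interval are those that the fit does not exclude.

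**Figure D5:**
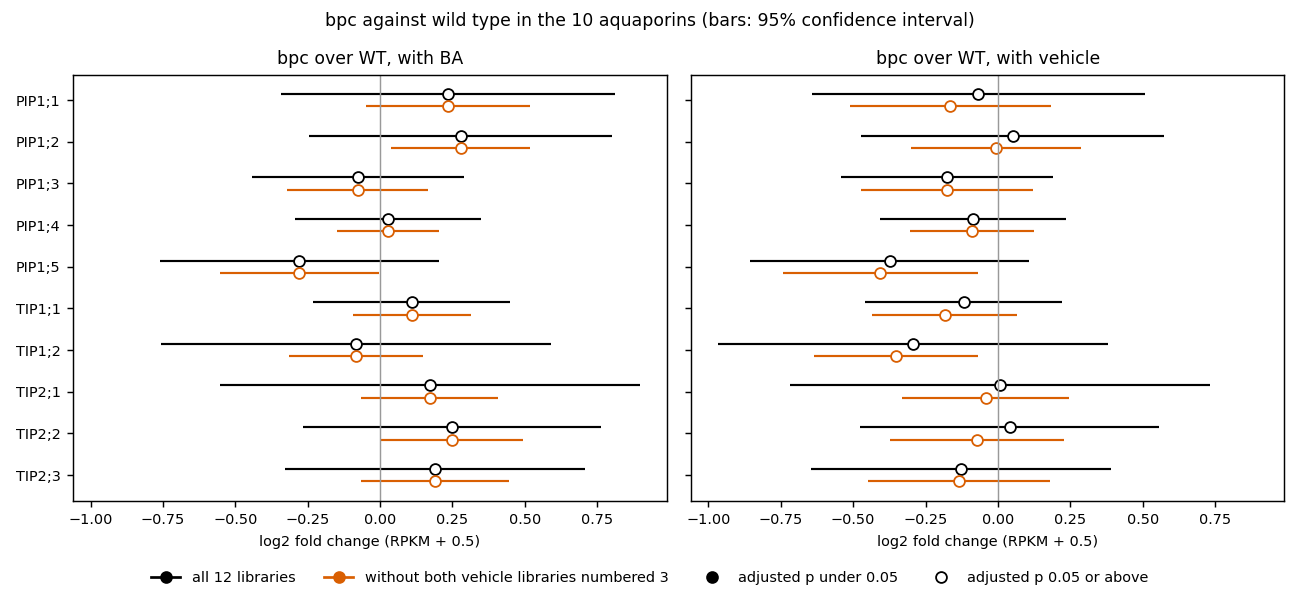
Log2 fold change of bpc over WT for each aquaporin with BA (left) and with vehicle (right), with its 95% confidence interval, in the fit of all 12 libraries (black) and in the 10-library fit (orange), where filled points would have an adjusted p under 0.05. No point is filled, and PIP1;5 is the lowest point in both plots, at -0.28 and -0.37 with all libraries.

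Whether BA acted differently in the genotypes was tested as an interaction, the bpc response minus the WT response. With limma, 0 of the 10 genes passed the threshold (0.00481% of all genes did) and 0 of 10 had an unadjusted p under 0.05 (background 1.63%), and the 10-library fit called 0 of 10 as well (background 0.0097%). All 10 values were positive, between 0.09 and 0.32, with a median of 0.21 against 0.05 for all genes, and the SE of each was 0.21 to 0.47. The sign of some members turned when certain single libraries were left out. Without bpc vehicle 3 the median was -0.02 with 5 of the 10 signs turned, without WT vehicle 2 it was 0.02 with 4 turned, and without WT vehicle 3 it was 0.51. In the 10-library fit the median was 0.28 with 0 signs turned (0.03 for all genes). Without all 4 libraries numbered 3 it was 0.42, also with 0 turned. Members varied together between libraries, so their common sign is not 10 separate observations. Over the 45 pairs of members, the correlation of deviations from the group means was 0.82 to 1.00 across the 12 libraries. Within a library all members have the same depth and scaling, and what makes them vary together was not tested. A BA call in one genotype and not the other, as for PIP1;1 in the 10-library fit, is therefore not shown to be a difference between genotypes.

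The rest of the aquaporin family gives the setting. Of 35 aquaporin genes listed, 30 passed the filter. Among the 8 PIP2 genes, the partners of PIP1 in the plasma membrane, PIP2;7 averaged 47.4 ± 2.4 RPKM in bpc and 364.2 ± 42.4 RPKM in WT with BA, and 37.1 ± 8.3 RPKM in bpc and 337.2 ± 42.5 RPKM in WT with vehicle. It fell by 2.92 log2 units with BA (SE 0.15, limma adjusted p = 1.0e-06) and by 3.18 with vehicle (SE 0.15, adjusted p = 3.5e-07) in bpc relative to WT. PIP2;5 was higher in bpc than WT with BA (1.13 ± 0.18, limma adjusted p = 0.0057), at 20.6 ± 3.4 RPKM in bpc and 9.14 ± 1.82 RPKM in WT. With vehicle it did not pass, at 18.7 ± 3.7 RPKM in bpc and 14.2 ± 2.3 RPKM in WT. With all 12 libraries 2 of the 8 PIP2 genes thus passed with BA (2.32% of all genes) and 1 of 8 with vehicle (1.99% of all genes), against 0 of the 10 PIP1 and TIP members, and this contrast between lists was not itself tested. The 10-library fit called 2 PIP2 genes as higher and 1 as lower in bpc with BA (6.26% of all genes), and 0 as higher and 2 as lower with vehicle (1.77% of all genes).

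With BA, PIP2;3 fell in WT (-0.61 ± 0.16, limma adjusted p = 0.033), at 44.8 ± 5.8 RPKM with BA and 69.2 ± 15.1 RPKM with vehicle. In bpc it did not pass but was also lower, at 39.3 ± 1.7 RPKM with BA and 56.0 ± 8.6 RPKM with vehicle. The authors' deposited table lists it as lower there too (-0.51, FDR 5.36e-08). In the 10-library fit 1 PIP2 gene passed as higher and 1 as lower with BA in bpc (background 9.73%), and 3 passed as lower in WT (background 10.5%). Of 9 NIP genes, which carry small solutes such as metalloids and boric acid, NIP1;1 rose in bpc (1.58 ± 0.17, limma adjusted p = 4.4e-05) and in WT (1.12 ± 0.17, adjusted p = 0.00074). It averaged 140.2 ± 7.8 RPKM with BA and 47.2 ± 10.4 RPKM with vehicle in bpc, and 126.6 ± 10.0 RPKM with BA and 58.4 ± 10.1 RPKM with vehicle in WT. NIP6;1 fell in bpc (-1.13 ± 0.27, limma adjusted p = 0.016), at 1.54 ± 0.74 RPKM with BA and 3.79 ± 0.47 RPKM with vehicle. In WT it did not pass but was also lower, at 1.44 ± 0.40 RPKM with BA and 3.13 ± 0.89 RPKM with vehicle. The authors' deposited table lists it as lower there too (-1.12, FDR 0.000551). Of the 7 NIP genes tested, the 10-library fit called 1 as higher and 2 as lower with BA in each genotype. The background was again 9.73% in bpc and 10.5% in WT. The other tonoplast channel at a high level, TIP4;1, averaged 88.4 RPKM with BA and 76.7 RPKM with vehicle in bpc, and 77.2 RPKM with BA and 83.2 RPKM with vehicle in WT, and passed in no comparison of all 12 libraries. In the 10-library fit it passed as lower with BA in WT (-0.39 ± 0.08, limma adjusted p = 0.0075) and did not pass in bpc (-0.07 ± 0.08, adjusted p = 0.82).

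The proton pumps of the same membranes energise the solute uptake that water follows, and they gave no limma calls in any comparison of all 12 libraries. For BA, of the 12 tonoplast pump genes 1 had an unadjusted p under 0.05 in bpc and 0 in WT, and of the 9 plasma membrane pump genes tested 1 did so in each genotype, against 18.3% of all genes in bpc and 18.5% in WT. The 10-library fit called the tonoplast pump subunit VHA-E3 as higher with BA in bpc (0.37 ± 0.10, limma adjusted p = 0.037) and the plasma membrane pump AHA11 as lower with BA in WT (-0.35 ± 0.09, adjusted p = 0.022). The tonoplast pyrophosphatase AVP1 was lowest in the same 2 libraries as the aquaporins, at 133.8 RPKM in bpc vehicle 3 and 155.2 RPKM in WT vehicle 3, against 232.4 to 280.4 RPKM elsewhere. The plasma membrane pump AHA2 averaged 464.2 RPKM with BA and 477.0 RPKM with vehicle in bpc, and 463.0 RPKM with BA and 521.0 RPKM with vehicle in WT.

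Among 17491 genes outside the aquaporin family with at least 2 RPKM on average, the pattern most like the mean log2 level of the 5 PIP1 genes over the 12 libraries was that of GRF6 (Pearson r = 0.98), followed by SDH3-1 (0.97) and YLS8 (0.97). For the mean of the 5 TIP genes it was that of TPL (0.98), UBQ14 (0.98) and LYC (0.97). GRF6, a 14-3-3 protein, had 218.8, 238.5 and 215.8 RPKM in bpc with BA and 226.0, 245.6 and 157.5 RPKM in bpc with vehicle. In WT it had 203.7, 222.2 and 256.0 RPKM with BA and 259.1, 276.7 and 176.5 RPKM with vehicle. Its lowest libraries were again both vehicle libraries numbered 3. These correlations describe 12 libraries, within each of which all genes have the same scaling, and were picked as the highest of many.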

How the data were processed

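Values for all 12 libraries were deposited by the authors as RPKM, beside 3 comparison tables whose columns, per the file headers, are log2 fold changes, log2 CPM, likelihood-ratio scores, p-values and FDR. Per the submitters' processing notes, TopHat2 2.0.11 and Bowtie 1.1.0, featureCounts, edgeR 3.0, FastQC and SAMtools 0.1.18 were used, with the build TAIR10. Of these tables' columns, the log2 fold changes and the p-values with their FDR are quoted, as the authors' deposited table; their log2 CPM and score columns were not used.

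The smallest steps between low RPKM values imply a depth of 9427912 to 13951019 reads per library. The divisor of WT BA 1, 11653485, equals that of WT vehicle 2, and its length-weighted RPKM sum was 86.5% of the median; it was used as deposited, and rescaled in an alternative.

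RPKM is no count, so R 4.3.3 and limma 3.58.1 were run on log2(RPKM + 0.5). Genes entered if 3 or more libraries reached 0.5 RPKM. The fit had 1 coefficient per group, an intensity trend, 8 residual degrees of freedom and Benjamini-Hochberg adjustment (threshold 0.05). This scale understates changes of low genes. The procedure was tested on simulated data with noise drawn independently for each gene and library. Those data held no outlying library and no genes that vary together, so the test does not cover these traits of the real data. Same-numbered libraries of bpc and WT with vehicle had correlated deviations from their group means (0.31, 0.37 and 0.63 for numbers 1, 2 and 3), but differently numbered libraries 1 and 2 also did (0.34 and 0.19), so the data single out number 3 above all; in the other comparisons at least 1 correlation was 0.1 or lower. The labels do not say what a number marks.

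The members, the gene lists and the libraries left out were chosen with earlier results of these data known. All 10 members are named whatever their values. Of each other list, those past the threshold are named (at most 4 by smallest p), or 2 of the most abundant; AVP1 and AT1G21310 were added after their values were seen. For each subfamily mean, the 3 genes with the highest correlation are named. Sequences and gene positions are from RefSeq (TAIR10.1), read with Biopython 1.88.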

Additional observations from a re-analysis of the deposited data

How the results depend on the processing

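Across 28 alternative settings, the 10 genes gave 1380 recomputed fold changes, of which 37 newly passed the threshold and 1 reversed; 94 others changed sign without passing before or after. The reversed value was TIP1;2 for BA in WT, -0.41 when all 4 libraries numbered 3 were left out. The number of members past the threshold for BA in bpc was 0 as reported. It was 2 without both vehicle libraries numbered 3 (9.73% of all genes) and 2 without all 4 libraries numbered 3 (6.84%). With both vehicle libraries numbered 3 left out and WT BA 1 rescaled it was 4 (12%), and with library weights 4 (17.8%). When single libraries were left out it was 0 to 1 (5.67% to 9.94% of all genes). For BA in WT, 0 as reported, it was 5 (10.5% of all genes), 6 (8.73%), 5 (12.8%) and 2 (11.7%) under the same 4 settings in that order. With quantile normalization it was 1 (9.57%), and with single libraries left out 0 to 2 (6.69% to 10.1%). With a replicate block it was 1 for BA in WT (TIP2;3, with 9.72% of all genes called). For bpc against WT with vehicle it was 1 (PIP1;5, with 4.05% of all genes called) in the block fit of the 6 vehicle libraries alone. The block changed no other call of a member. Counts for bpc against WT with BA and for the interaction were 0 in every setting run. Without all 4 libraries numbered 3, however, 6 of the 10 members for bpc against WT with BA and 7 for the interaction had an unadjusted limma p under 0.05. The share of all genes at that unadjusted p was not computed for this setting, so these counts have no background and are not read as a result. At the adjusted threshold the setting called 2.05% of all genes for bpc against WT with BA and 0.00488% for the interaction. Leaving out all 4 libraries numbered 3, the rescaling combined with left-out libraries, and the library weights were chosen after seeing the data. What makes the calls depend on the vehicle libraries numbered 3 was not tested.

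Over all genes, single-library omission moved the number called from 1785 to between 1175 and 2058 for BA in bpc, from 1803 to between 1387 and 2092 for BA in WT, from 481 to between 172 and 634 for bpc against WT with BA, and from 414 to between 173 and 421 with vehicle. The other settings gave 1401 to 3690, 1124 to 2642, 420 to 1669 and 80 to 1772 for the same 4 comparisons in that order, and 0 to 4 genes for the interaction, against 1. With 3 libraries a group, an SE of 0.15 to 0.33 log2 units limits what can be seen for these genes more than their read counts do.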
